A study of Homo sapiens with 6 samples.

Results

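Plasma cells secrete antibody, and the 7 genes described here (JCHAIN, MZB1, PRDM1, XBP1, SDC1, TNFRSF17 and IRF4) mark that cell type or drive its formation. All of their transcripts were taken by gene symbol, which gave 7 of the 12472 human genes counted and 32 stored transcripts of the 46 that are annotated. They were described in human cells of a mixture of a human and a mouse line, labelled JJN3 and 5TGMG1 (5TGM1 in the study) and called myeloma cell lines. Human and mouse cells were mixed at 50:50 for 10X Chromium and at 20:80 for Drop-seq. The mixture carried no treatment other than the number of PCR cycles. The 10X libraries had 30 or 35 cycles and the Drop-seq libraries 25, 30 or 35, with 1 library for each. The labels and the study's account of library preparation give JJN3, a human myeloma line, for both platforms. The study's account of its cell culture and a figure legend on 10X name Jurkat, a T cell leukaemia line. The human cells are therefore named only as labelled.

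During plasma cell differentiation the transcription factors IRF4 and PRDM1 (BLIMP-1) switch off the B cell programme, and XBP1 enlarges the secretory pathway. XBP1 needs an unusual step, because the endoplasmic reticulum sensor IRE1 cuts a short segment out of its RNA under secretory load and only the cut RNA encodes the strong activator. JCHAIN and MZB1 act in the assembly of immunoglobulins, and SDC1 (CD138) and TNFRSF17 (BCMA) are surface proteins of plasma cells and myeloma cells. Myeloma is a tumour of plasma cells, so these genes are usual markers of a myeloma line.

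The IRE1 segment is the place where sequence tells XBP1 transcripts of different function apart, and it is shown for that reason. It spans 26 bases on the minus strand at chr22:28796128-28796153 (hg38), within the coding sequence. The first line gives the annotated transcript that keeps the segment, with the segment in capitals and 20 bases on each side. The second line gives the annotated transcript in which those flanks are joined.
ENST00000216037: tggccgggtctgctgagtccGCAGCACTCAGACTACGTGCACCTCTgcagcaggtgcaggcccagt
ENST00000344347: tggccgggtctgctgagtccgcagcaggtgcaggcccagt
The joined transcript had no entry in any of the 5 matrices. XBP1 counts therefore came only from transcripts that keep the segment or lack this region, and the matrices give no measure of cut XBP1 RNA.

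Barcodes were ranked by total counts, the labelled number of cells was taken from the top, and those with 90% or more of their counts on human transcripts were called human cells. There were 1006 and 911 such cells in 10X at 30 and 35 cycles, and 251, 166 and 165 in Drop-seq at 25, 30 and 35 cycles. Counts on human transcripts in them were between 67144 and 199308 for each library. The median human cell held 118 and 171 counts in 10X and 271, 243 and 352 in Drop-seq. The smallest stored value was 2 in 10X, 3 in Drop-seq at 30 and 35 cycles and 1 in the Drop-seq library of 25 cycles, so a gene with fewer counts in a cell has no entry. With 1 library in each group there is no replicate check and no test. Intervals are exact 95% intervals that cover counting error only. Those of levels and ratios take every count as independent. They are too narrow where counts repeat across transcripts, come from few cells or are stored only at 2 or more in a cell.

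Human cells of 10X held counts of all 7 genes, and human cells of Drop-seq held counts of MZB1 alone. At least 1 of the 7 genes was counted in 235 of 1006 human cells of 10X at 30 cycles (23.4%, 20.8 to 26.1) and in 191 of 911 at 35 cycles (21.0%, 18.4 to 23.8). The same share was 2 of 251 cells in Drop-seq at 25 cycles (0.797%), 1 of 166 at 30 cycles (0.602%) and 1 of 165 at 35 cycles (0.606%). The upper bounds of the Drop-seq intervals, 2.85%, 3.31% and 3.33%, lie below the lower bounds of both 10X intervals. When all libraries were given the same smallest value by dropping entries under 3, a choice made after seeing the data, the 10X shares were 55 of 1006 (5.47%, 4.14 to 7.06) and 48 of 911 (5.27%, 3.91 to 6.93), and those of Drop-seq kept their values. The 10X shares were thus much lower at an equal smallest value, and their intervals still lay above those of Drop-seq. The median human cell of Drop-seq held more counts than that of 10X. Over all human cells, 6768 and 6519 human genes were detected in 10X, which held more human cells. In Drop-seq these were 3835, 2238 and 2617. The part of depth was not tested. Platform, capture, counting method and cell suspension all differ between 10X and Drop-seq and cannot be told apart.

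**Figure D1:**
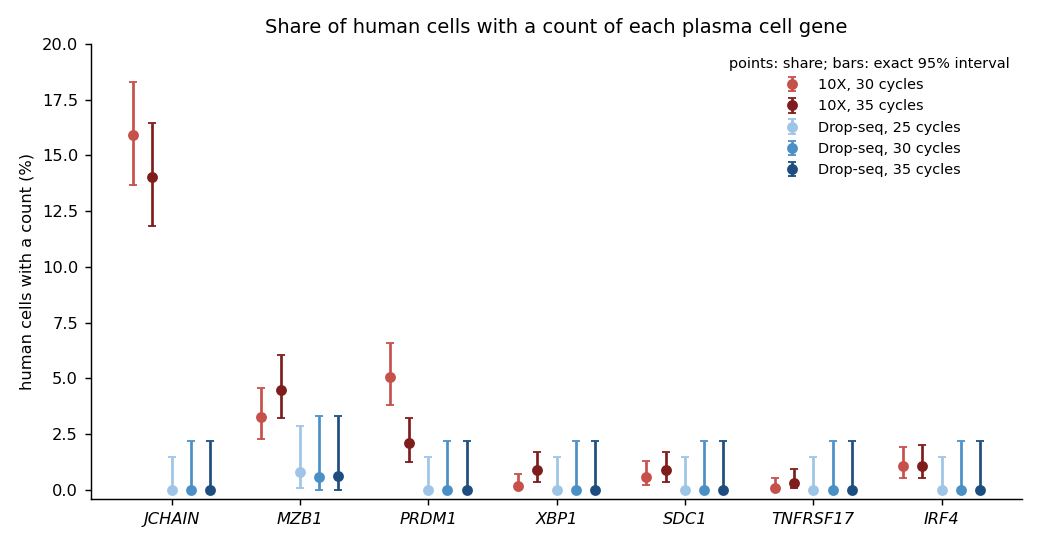
Percent of human cells with a count of each gene (y axis) for the 7 genes (x axis) in the 5 libraries, with exact 95% intervals as bars. JCHAIN stands at 15.9% and 14.1% in 10X and at 0 in all 3 Drop-seq libraries, and MZB1 is the only gene with cells above 0 in Drop-seq.

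JCHAIN encodes the joining chain of polymeric IgA and IgM and lies at chr4:70655541-70681817 on the minus strand (ENSG00000132465). Its summed count was 392 in 10X at 30 cycles, 310 in 10X at 35 cycles and 0 in each Drop-seq library. It was counted in 160 human cells at 30 cycles (15.9%, 13.7 to 18.3) and in 128 at 35 cycles (14.1%, 11.9 to 16.5). No mouse cell of either 10X library had a JCHAIN count, out of 806 and 881. Among mixed barcodes 7 of 188 and 18 of 208 had it, so within the cells JCHAIN was found only where human counts were found. The absence from 251, 166 and 165 human cells of Drop-seq allows shares of up to 1.20%, 1.81% and 1.82%. At 3 counts or more JCHAIN was in 47 human cells of 10X at 30 cycles (4.67%, 3.45 to 6.16) and in 36 at 35 cycles (3.95%, 2.78 to 5.43), which is above those limits. An antisense RNA gene overlaps the JCHAIN locus, and the study's methods orient reads by their poly(A) tail and map them in the transcript direction.

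MZB1, a chaperone of the endoplasmic reticulum in B lineage cells, lies at chr5:139387467-139390081 on the minus strand (ENSG00000170476). Its summed count was 201 and 280 in 10X at 30 and 35 cycles, and 15, 5 and 7 in Drop-seq at 25, 30 and 35 cycles. It was counted in 33 human cells of 10X at 30 cycles (3.28%, 2.27 to 4.58) and in 41 at 35 cycles (4.50%, 3.25 to 6.06). The Drop-seq counts came from 2, 1 and 1 human cells, and 1 of 590 mouse cells at 25 cycles also had one. One stored barcode gave MZB1 in all 3 Drop-seq libraries, with 3, 5 and 7 counts. The Drop-seq shares of MZB1 are therefore those of 1 or 2 cells, and the share at 25 cycles overlaps that of its mouse cells. At 3 counts or more MZB1 was in 4 and 10 human cells of 10X (0.398% and 1.10%), with intervals that overlap those of Drop-seq.

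PRDM1, the repressor that ends the B cell programme, lies at chr6:105993463-106109939 on the plus strand (ENSG00000057657). Its summed count was 392 in 10X at 30 cycles, equal to that of JCHAIN, 134 at 35 cycles and 0 in each Drop-seq library. It was counted in 51 human cells at 30 cycles (5.07%, 3.80 to 6.61) and in 19 at 35 cycles (2.09%, 1.26 to 3.24), and these intervals do not overlap. PRDM1 was the only one of the 7 genes with counts in mouse cells of 10X, in 2 of 806 and 1 of 881. The human cells exceeded that background in both libraries. At 3 counts or more PRDM1 was in 5 cells (0.497%) and 2 cells (0.220%) of 10X, which lies under the share that a count of 0 allows in Drop-seq. Part of ATG5 lies on the opposite strand of the PRDM1 locus.

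IRF4, the other regulator of plasma cell formation, lies at chr6:391739-411443 on the plus strand (ENSG00000137265). It had 22 counts in 11 human cells of 10X at 30 cycles (1.09%) and 27 counts in 10 cells at 35 cycles (1.10%). XBP1, at chr22:28794555-28800597 on the minus strand (ENSG00000100219), had 6 counts in 2 cells (0.199%) and 36 counts in 8 cells (0.878%). Both regulators had 0 counts in human cells of every Drop-seq library. With at most 11 cells each, the 10X shares of XBP1 and IRF4 lie under the shares that a count of 0 still allows in Drop-seq, which are 1.20% to 1.82%. A difference in the share of cells between platforms was therefore not detectable for these genes with so few human cells in Drop-seq.

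Both surface markers were also rare. SDC1, a heparan sulfate proteoglycan at chr2:20200797-20225433 on the minus strand (ENSG00000115884), had 29 counts in 6 human cells of 10X at 30 cycles (0.596%) and 38 counts in 8 cells at 35 cycles (0.878%). TNFRSF17, a receptor for the survival factors BAFF and APRIL at chr16:11965210-11968068 on the plus strand (ENSG00000048462), had 2 counts in 1 cell (0.0994%) and 6 counts in 3 cells (0.329%). Neither had a count in human cells of Drop-seq. As for XBP1 and IRF4, these shares are too low to be set apart from a Drop-seq count of 0.

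Counts in a positive cell were low. In 10X at 30 cycles 113 of the 160 cells with JCHAIN held it at 2 counts, the smallest stored value, and at 35 cycles 92 of 128 did. The highest JCHAIN count in a cell was 7 in both libraries. Cells with JCHAIN were also deeper, with a median of 186 counts against 118 for all human cells at 30 cycles, and 243 against 171 at 35 cycles. A cell without an entry is therefore not a cell without the transcript.

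Most positive cells showed a single gene. Of the 235 cells at 30 cycles, 209 had 1 of the genes, 23 had 2 and 3 had 3, and of the 191 cells at 35 cycles the numbers were 167, 22 and 2. JCHAIN was present in 8 of 33 cells with MZB1 (24.2%) at 30 cycles and in 9 of 41 at 35 cycles. It was present in 11 of 51 cells with PRDM1 (21.6%) and in 7 of 19 (36.8%). All 4 of these proportions are above the 15.9% and 14.1% over all human cells, but cells with a given gene are also deeper, and the part of depth was not tested.

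Levels were put on a common scale as counts per 1000000 human counts in human cells (CPM), summed over the transcripts of a gene. JCHAIN and PRDM1 both stood at 2420 CPM in 10X at 30 cycles, MZB1 at 1241, SDC1 at 179, IRF4 at 136, XBP1 at 37.0 and TNFRSF17 at 12.3. At 35 cycles JCHAIN stood at 1555 CPM, MZB1 at 1405, PRDM1 at 672, SDC1 at 191, XBP1 at 181, IRF4 at 135 and TNFRSF17 at 30.1. In Drop-seq MZB1 stood at 130, 74.5 and 74.9 CPM at 25, 30 and 35 cycles. The 7 genes together made up 6446 CPM (6061 to 6849) and 4169 CPM (3891 to 4463) in 10X, against 130, 74.5 and 74.9 in Drop-seq. The 3 counts that a count of 0 allows, if counts are taken as independent, correspond to 26.0, 44.7 and 32.1 CPM in the Drop-seq libraries. The 10X levels of JCHAIN and PRDM1 are far above those limits, whereas TNFRSF17 is not.

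Transcripts of 1 gene mostly carried equal values in a cell, so that the sum adds the same value several times. Intervals of such sums count the repeats as separate counts and are too narrow. In 10X at 30 cycles, all 47 cells with PRDM1 on more than 1 transcript held the same value on each of them, with a median of 4 transcripts for a cell with PRDM1. The same was true of 30 of 30 such cells for MZB1 and 6 of 6 for SDC1, and at 35 cycles of 15 of 15, 39 of 41 and 8 of 8. Whether 1 molecule was listed on every transcript it matches is not stated in the study's methods. Taking only the highest transcript of a gene in each cell left JCHAIN at 2420 and 1535 CPM in 10X but brought PRDM1 to 679 (558 to 819) and 201 (143 to 273), and MZB1 to 438 (342 to 553) and 472 (381 to 577). The 7 genes together then stood at 3791 CPM (3497 to 4103) and 2514 CPM (2298 to 2744) in 10X, and at 52.1, 74.5 and 74.9 CPM in Drop-seq.

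**Figure D2:**
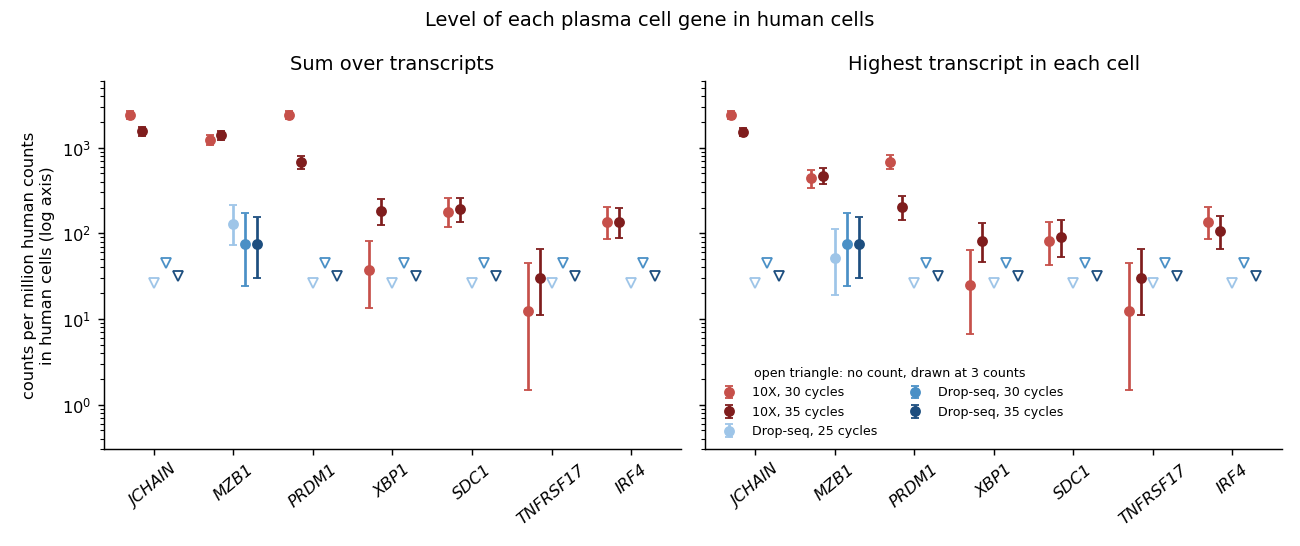
CPM in human cells on a log axis for the 7 genes, as the sum over transcripts (left) and as the highest transcript in each cell (right), with exact 95% intervals. Open triangles mark genes with no count, drawn at the level of 3 counts. PRDM1 and MZB1 fall from the left to the right panel, from 2420 to 679 and from 1241 to 438 CPM in 10X at 30 cycles, and JCHAIN stays at 2420.

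A UMI count is meant to stand for a molecule whatever its length, although the study reports that PCR errors can inflate it. The order of genes was read with and without division by length. By highest-transcript CPM at 30 cycles JCHAIN came first, followed by PRDM1 and then MZB1, with intervals that do not overlap, and at 35 cycles MZB1 stood above PRDM1. The CPM was also divided by the length in kb of the transcript with the most counts over all libraries. JCHAIN then stood at 1882 CPM per kb (1700 to 2078) at 30 cycles, MZB1 at 400.0 (312 to 505) and PRDM1 at 132 (108 to 159), and at 35 cycles the values were 1194, 430 and 39.0. JCHAIN was first on both scales, whereas the places of MZB1 and PRDM1 at 30 cycles depend on the division. IRF4, SDC1 and TNFRSF17 had 25.6, 24.4 and 13.9 CPM per kb at 30 cycles and 19.8, 27.4 and 33.8 at 35 cycles, with intervals that overlap one another. XBP1 had 43.4 CPM per kb at 35 cycles and is not placed at 30 cycles, where its 6 counts lay on other transcripts.

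At the transcript level JCHAIN had a single form. ENST00000254801, a coding transcript of 1286 bases with 4 exons, held 392 of 392 counts in 10X at 30 cycles (100%, 99.1 to 100) and 306 of 310 at 35 cycles (98.7%). The other 4 counts at 35 cycles lay on ENST00000391614 and ENST00000510437, with 2 each. Most IRF4 counts lay on ENST00000380956, the coding transcript of 5314 bases, with 20 of 22 at 30 cycles and 19 of 27 at 35 cycles (70.4%, 49.8 to 86.2). The other IRF4 counts at 35 cycles were 5 on ENST00000495137, a retained-intron transcript, and 3 on ENST00000493114, a target of nonsense-mediated decay. TNFRSF17 was counted only on ENST00000053243.

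MZB1 counts were spread evenly over ENST00000302125 (67 and 88 counts at 30 and 35 cycles), ENST00000417694 (65 and 88) and ENST00000503481 (65 and 90). The first is annotated as coding and the other two as targets of nonsense-mediated decay. ENST00000302125 shares 906 of its 925 exonic bases with ENST00000417694 and 912 with ENST00000503481, and the annotated 3′ ends of these transcripts lie within 19 bases of each other. The counts thus give no measure of how coding and decay forms divide. In Drop-seq at 30 and 35 cycles all MZB1 counts of human cells, 5 and 7, lay on ENST00000503120, an annotated retained-intron transcript. They came from 1 cell in each library, with the same stored barcode. Over all barcodes of these libraries ENST00000302125 held 29 and 64 counts, against 5 and 7 on ENST00000503120. In 10X human cells ENST00000503120 held 4 of 201 and 8 of 280 counts.

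PRDM1 counts lay on 4 coding transcripts, ENST00000369096 (104 and 36 counts), ENST00000651185 (94 and 34), ENST00000652320 (94 and 30) and ENST00000369089 (92 and 30). ENST00000369089 shares 4519 of its 4675 exonic bases with ENST00000369096 and 4520 with each of the other two, and the annotated ends lie at most 1 base apart. All 4 changed alike with cycle number. No other PRDM1 transcript held more than 4 counts in either 10X library.

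SDC1 showed the same pattern, with 13 and 18 counts on ENST00000254351 and the same numbers on ENST00000381150. XBP1 counts at 35 cycles were 12 on ENST00000216037, 10 on ENST00000403532, 10 on ENST00000484256 and 4 on ENST00000482720. The first 3 contain the IRE1 segment printed above and the last does not cover it. At 30 cycles XBP1 had no count on the first 3, and its 6 counts lay on ENST00000482720 (4) and ENST00000405219 (2). With 2 cells at 30 cycles the forms of XBP1 cannot be compared between cycle numbers.

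**Figure D3:**
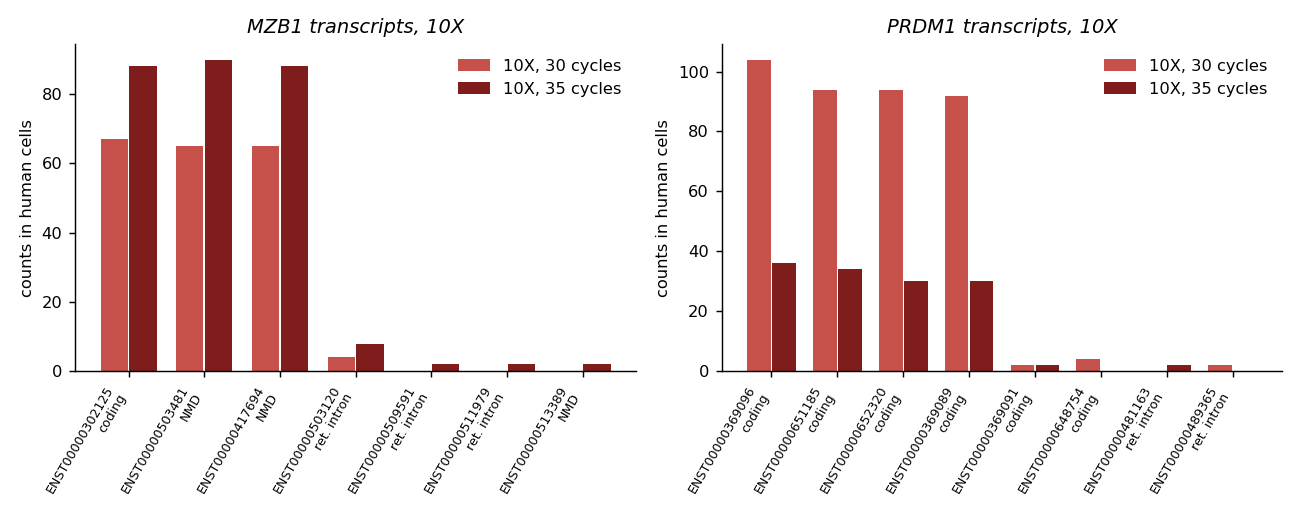
Counts in human cells (y axis) of every MZB1 (left) and PRDM1 (right) transcript with a count in 10X at 30 or 35 cycles, with the annotated transcript type under each name (NMD, nonsense-mediated decay). MZB1 shows 3 nearly equal transcripts of 65 to 67 counts at 30 cycles, and PRDM1 shows 4 of 92 to 104 at 30 cycles and 30 to 36 at 35 cycles.

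The 30- and 35-cycle 10X libraries came from the same capture, divided after the first PCR. On the sum over transcripts the log2 ratio of CPM, 35 over 30 cycles, was -0.64 for JCHAIN (-0.86 to -0.42), 0.18 for MZB1 (-0.09 to 0.45), -1.84 for PRDM1 (-2.14 to -1.56) and 2.19 for XBP1 (1.02 to 3.82). It was 0.08 for SDC1 and -0.01 for IRF4, while TNFRSF17 had fewer than 20 counts over both libraries and was not compared. The intervals on the sum count values repeated over transcripts as separate counts. They are too narrow for genes such as PRDM1 and XBP1. PRDM1 was thus the member at least 2-fold lower at 35 cycles, and XBP1 the member at least 2-fold higher. Across all 2163 human genes with 20 or more counts, 28.3% were at least 2-fold lower and 15.9% at least 2-fold higher, with a median log2 ratio of -0.30. One gene of 6 in each direction is near that background.

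With the highest transcript the same members passed 2-fold, PRDM1 at -1.75 (-2.32 to -1.22) and XBP1 at 1.58 (0.07 to 3.74), the latter on 4 and 16 counts. The shares over the 1275 genes tested that way were 26.7% lower and 9.8% higher, with a median of -0.39. JCHAIN stood at -0.66 (-0.88 to -0.44) and MZB1 at 0.10 (-0.35 to 0.57). The JCHAIN interval ends just below the median of all genes, and the MZB1 interval holds 0 and begins just above that median. Each 10X entry holds 2 or more counts, so both intervals are too narrow to set either gene apart from the median. The shares of cells with JCHAIN, 15.9% (13.7 to 18.3) and 14.1% (11.9 to 16.5), had overlapping intervals.

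In Drop-seq no member reached 20 counts over the 30- and 35-cycle libraries, so none was compared there. MZB1, with 5 and 7 counts, stood at a log2 ratio of -0.03 (-1.86 to 2.01). Of the 1443 human genes that could be compared, 8.8% were higher by 2-fold or more with 35 cycles and 8.04% were lower by that much, and by the highest transcript 3.78% and 2.31% of 821.

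XBP1 turned round when values below 3 were left out of both libraries, to -0.82, because no cell then held an XBP1 entry and the ratio reflects only the totals. PRDM1 stayed between -2.38 and -1.12 and JCHAIN between -1.26 and -0.34 under the 14 alternatives run for each. After cells were thinned to 200 counts, with shallower cells left out, PRDM1 was in 11.5% of 208 human cells at 30 cycles and in 2.80% of 326 at 35 cycles. JCHAIN was in 29.2% and 19.7%, and MZB1 in 7.83% and 8.10%. Without thinning the same cells gave 12.0% and 3.07% for PRDM1, 35.1% and 24.5% for JCHAIN, and 8.65% and 8.59% for MZB1. The PRDM1 and JCHAIN shares thus stayed lower at 35 cycles after thinning. The thinning left out 798 and 585 cells, took counts repeated over transcripts as separate and applied no smallest stored value. It therefore cannot show the part of depth.

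**Figure D4:**
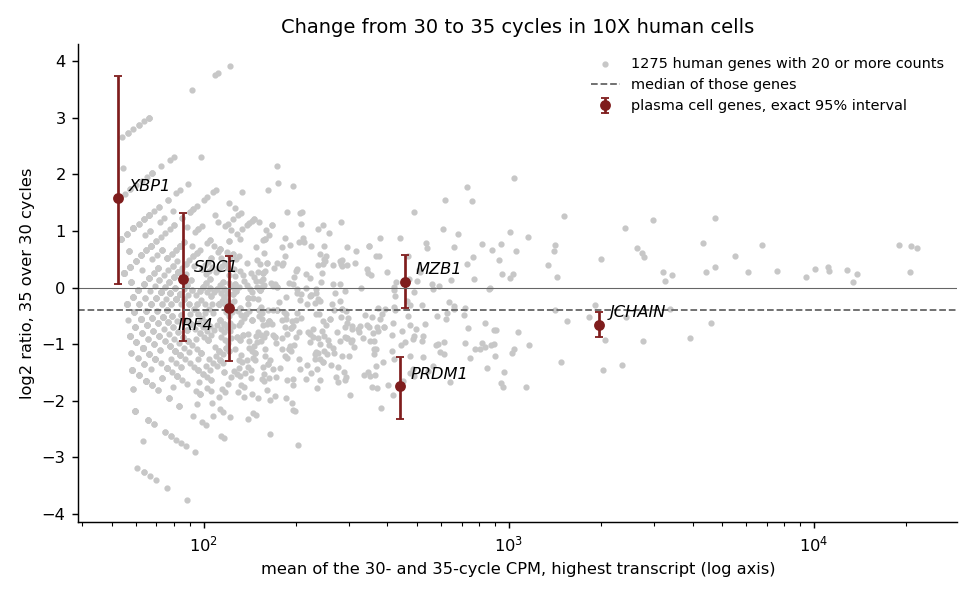
Log2 ratio of 35 over 30 cycles against mean CPM (log axis) in 10X human cells, by the highest transcript of each gene in each cell. Grey points are the 1275 genes with 20 or more counts, the dashed line is their median of -0.39, and red points are the 6 plasma cell genes that reach 20 counts, with exact 95% intervals. PRDM1 at -1.75 lies under the median with its whole interval.

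The stored barcodes allow the same cells to be followed between 10X libraries, with the limit that only 10 bases were stored and different cells may share them. Of the stored barcodes, 722 were human cells at both cycle numbers. JCHAIN was counted in 127 of them at 30 cycles and in 113 at 35 cycles, and 47 had it both times, which is 37.0% of the first against 15.7% of all 722 at 35 cycles. MZB1 had 31 and 34 such cells with 8 in common, and PRDM1 had 40 and 17 with 5 in common. For these 3 genes, cells with the gene at 30 cycles had it again more often than the average cell, and most did not have it again. IRF4 had 1 cell in common, and XBP1, SDC1 and TNFRSF17, with 2, 5 and 1 such cells at 30 cycles, had none. Positive cells were also deeper, and the part of depth was not tested. Over these 722 barcodes PRDM1 fell from 302 to 120 counts while the total rose from 132395 to 171800.

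Platforms were compared after values below 3 were left out of every library, since the smallest stored value differed, first on the sum over transcripts. JCHAIN then had 166 counts in 10X and 0 in Drop-seq at 30 cycles, a CPM 77.3-fold that of 3 Drop-seq counts. It had 122 against 0 at 35 cycles, 44.9-fold that of 3 counts. PRDM1 had 72 against 0 and 24 against 0, a CPM 33.5-fold and 8.84-fold that of 3 counts. Entries hold 3 or more counts and repeat over transcripts, so a count of 0 can allow more than 3. These folds are therefore not lower bounds. MZB1 had 39 counts in 10X against 5 at 30 cycles, a log2 ratio of 3.33 (2.10 to 5.15), and 92 against 7 at 35 cycles, a log2 ratio of 3.77 (2.76 to 5.21). These 3 genes reached 20 counts and were higher in 10X at both cycle numbers on the sum. At this smallest value MZB1 lay in 4 and 10 human cells of 10X at 30 and 35 cycles, and in 1 and 1 of Drop-seq. PRDM1 lay in 5 and 2 human cells of 10X. Counts of the same cell are not independent, so the MZB1 intervals are too narrow, and the PRDM1 folds rest on those few cells. By the highest transcript JCHAIN kept its values, while PRDM1 had 18 and 6 counts, a CPM 8.39-fold and 2.21-fold that of 3 counts. MZB1 had log2 ratios of 1.78 (0.28 to 3.70) and 2.26 (1.13 to 3.76). PRDM1 at both cycle numbers and MZB1 at 30 cycles then had fewer than 20 counts, so that JCHAIN alone kept its place throughout.

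Most human genes lay the other way. Of 873 genes tested at 30 cycles, 16% were at least 2-fold higher in 10X and 75.8% at least 2-fold lower, and of 1145 genes at 35 cycles 12.9% were higher and 78.9% lower. Genes with no count in Drop-seq, as JCHAIN and PRDM1, made up 7.56% and 6.81%. The sum of the 7 genes had a log2 ratio of 6.19 (5.08 to 7.95) at 30 cycles and 5.26 (4.29 to 6.68) at 35 cycles, where the medians of all tested genes were -5.13 and -5.41. By the highest transcript these ratios were 5.67 and 4.64 beside medians of -2.54 and -3.43. Of the genes tested by the highest transcript, 29% and 19.5% were at least 2-fold higher in 10X, 61.1% and 69.4% lower, and 12% and 7.92% without a count in Drop-seq. Leaving out values of 2 removed most 10X entries, since 85.4% and 79.6% of all entries of the 10X matrices at 30 and 35 cycles held that value, and this lowers 10X genes whose counts are thinly spread.

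Other markers were set beside these 7 genes, with counts as sums over transcripts and the summed CPM of each list by the highest transcript. The immunoglobulin light chain genes separated the platforms most. IGLL5, which shares exons with the lambda constant gene IGLC1 so that their reads may not be told apart, was counted in 767 of 1006 human cells of 10X at 30 cycles (76.2%) and in 885 of 911 at 35 cycles (97.1%), and in 0 human cells of every Drop-seq library. IGLC1 was in 716 and 872 human cells of 10X. Of the 15 immunoglobulin constant genes listed, 12 and 11 had no count in human cells of 10X at 30 and 35 cycles. IGHA1, IGHA2, IGHM and the kappa gene IGKC were among those in both libraries. Heavy chain counts were 4 and 6 on IGHG1 and 0 and 2 on IGHG3. Cells without any of the 7 genes had IGLL5 in 74.6% and 96.5%, and cells with one of them in 81.7% and 99.5%. The light chain thus marked nearly all human cells of 10X at 35 cycles, including those with no entry for the 7 genes. Its background in mouse cells of 10X was also higher at 35 cycles. IGLL5 was in 6 of 806 mouse cells at 30 cycles and in 46 of 881 at 35 cycles.

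Of 14 other plasma cell genes, 4 reached 20 counts in each 10X library and 0, 1 and 1 in Drop-seq at 25, 30 and 35 cycles. The most abundant by summed counts in 10X at 35 cycles were TNFRSF13B (TACI, a further receptor for BAFF and APRIL) with 26 and 58 counts at 30 and 35 cycles, and TENT5C, a poly(A) polymerase often mutated in myeloma, with 50 and 42. By the highest transcript the order was TENT5C (42), PIM2 (37) and TNFRSF13B (31). In Drop-seq at 35 cycles they were ITGA4, an integrin subunit of many lymphocytes, with 15, 34 and 60 counts at 25, 30 and 35 cycles, and CD79A, a part of the B cell receptor, with 0, 5 and 9. TENT5C had 6, 5 and 9 counts in Drop-seq and tied with CD79A at 30 and 35 cycles. TNFRSF13B had no count in human cells of Drop-seq, and ITGA4 had 2 and 0 in 10X. The list as a whole stood at 926 and 773 CPM in 10X and at 130, 402 and 524 CPM in Drop-seq, a smaller gap than for the 7 identity genes.

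Of 24 secretory genes known to depend on XBP1, 14 and 12 reached 20 counts in 10X and 5, 3 and 5 in Drop-seq. The most abundant in 10X at 35 cycles were SSR2, a translocon subunit, with 506 and 837 counts, and SPCS2, a subunit of signal peptidase, with 168 and 401. In Drop-seq they were SPCS1 with 61, 26 and 48 counts and PDIA6, a disulfide isomerase, with 25, 24 and 26. Summed levels were 6211 and 5243 CPM in 10X and 1302, 1132 and 1037 CPM in Drop-seq. Between 10 and 22 of the 24 secretory genes were detected in each library, whereas only MZB1 of the 7 identity genes was detected in Drop-seq. In Drop-seq 9, 14 and 14 of the 24 had no count, and SSR2 had 14, 0 and 0 counts. At least 1 secretory gene was in 33.4% and 36.1% of human cells of 10X. In Drop-seq the shares were 11.2%, 6.63% and 7.27%, from 28, 11 and 12 cells.

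Markers of T cells showed the opposite order. Of 16 T cell genes, 0 reached 20 counts in 10X, where 4 and 2 counts were seen in all, and 4, 2 and 2 reached it in Drop-seq. By the highest transcript CD3D (33), CD3G (50) and TRBC1 (74) reached it at 25 cycles. CD3G, a chain of the T cell receptor complex, had no count in 10X and summed counts of 102, 73 and 69 in the Drop-seq libraries of 25, 30 and 35 cycles, and TRBC1, a constant region of the receptor, had 74, 50 and 64 counts and 0 in 10X. At least 1 T cell gene was counted in 47 of 251 (18.7%), 19 of 166 (11.4%) and 25 of 165 (15.2%) human cells of Drop-seq, against 41 of 590, 3 of 291 and 4 of 309 mouse cells. In 10X it was counted in 2 of 1006 and 1 of 911 human cells. Summed levels were 24.7 and 10.0 CPM in 10X and 1692, 1683 and 1487 CPM in Drop-seq.

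B cell genes were near 0 on both platforms, with 7 and 7 counts for 12 genes in 10X and 2, 0 and 0 in Drop-seq. PAX5 and MS4A1, which mark B cells, had no count in human cells of any library. The human cells of 10X thus held plasma cell identity and lambda light chain genes, with nearly no heavy chain, kappa, B cell or T cell genes. The human cells of Drop-seq held T cell genes and, of the 7 identity genes, only MZB1 in 1 or 2 cells, although the labels give one human line for both, and what sets the platforms apart was not tested.

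**Figure D5:**
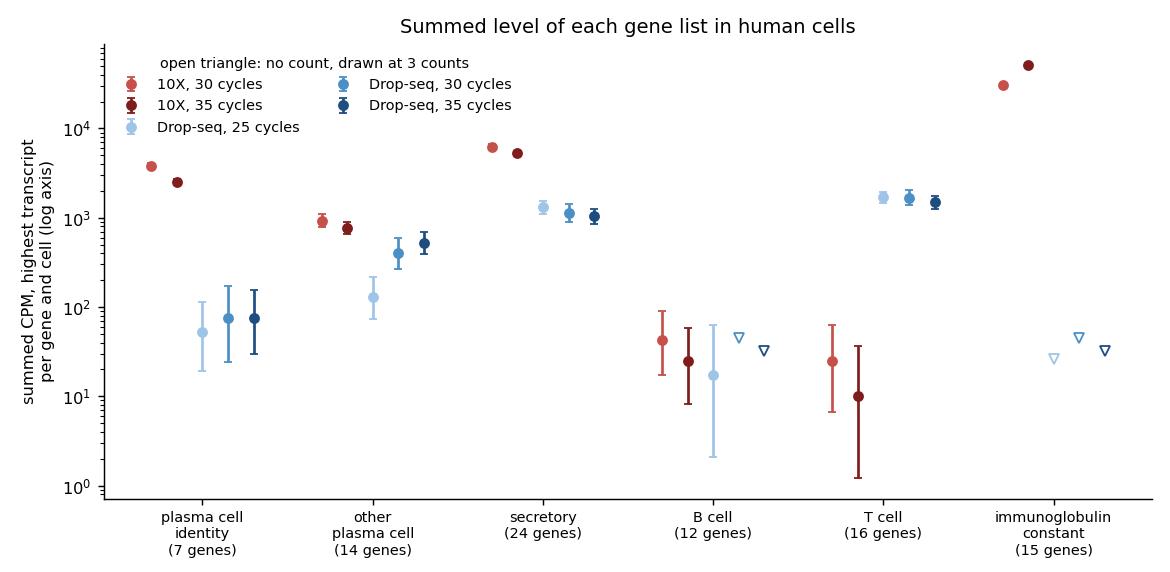
Summed CPM in human cells on a log axis, by the highest transcript of each gene in each cell, for 6 gene lists in the 5 libraries, with exact 95% intervals. Open triangles mark lists with no count, drawn at 3 counts. The plasma cell identity list stands at 3791 and 2514 CPM in 10X and at 52.1 to 74.9 CPM in Drop-seq, and the T cell list at 24.7 and 10.0 CPM in 10X and 1487 to 1692 CPM in Drop-seq.

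None of the 7 genes reached 20 counts in human cells of every library, the level set for naming genes with a similar pattern, so no such gene is named.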

How the data were processed

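Single-cell RNA libraries of 6 samples were labelled, and 5 gave a matrix. The sixth (a homotrimer template switch library) gave only read numbers and was not used here. Each deposited matrix gave UMI counts, in whole numbers, by barcode and transcript. The authors made them from nanopore reads, with Guppy 6.4.8 for base calling and minimap2 2.25 for mapping to transcripts of both species (hg38 for human). The authors counted 10X UMIs with UMI-tools. For Drop-seq, either UMI-tools or their homotrimer method made the files, and which is not stated. The filters behind the smallest stored values are not stated either. Stored barcodes had 10 bases in every matrix.

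Human transcripts were matched to GENCODE release 44 by identifier without version (42740 of 46484, 91.9%). Cells, purity and levels are described with the results. Human cells held 67144 to 199308 human counts for each library. The 7 genes and all lists were chosen with earlier results of these data known. The text names the 7 genes, their transcripts with 20 or more counts (others by count), and the 2 most abundant genes of each list in 10X and in Drop-seq at 35 cycles. No doublet caller was run, and mixed barcodes were set aside. Log2 ratios used a pseudocount of 0.5 counts and genes with 20 or more counts over both libraries, with 2-fold as a rule of size. The ratio calculation was run on simulated independent counts per gene, without smallest stored values or repeats across transcripts. That run cannot show how those features affect the ratios. Intervals were Clopper-Pearson for shares, Poisson for levels and conditional binomial for ratios. Counts come from molecules copied by PCR, so intervals cover counting error only. Intervals of levels and ratios take counts as independent, which counts repeated over transcripts, or stored only at 2 or more in a cell, are not. Calculations used scipy 1.17.1, pandas 2.3.3 and numpy 2.4.6 under Python 3.11.15, and matplotlib 3.10.9 drew the figures. Alternatives covered the choice of cells, purity, the counting of transcripts, the smallest value kept, scaling, thinning, shared barcodes, the pseudocount and the count minimum.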

Additional observations from a re-analysis of the deposited data

Results flagged for a closer look

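Barcodes that were not taken as cells in Drop-seq held plasma cell genes, in data outside the comparisons above. MZB1 had 197 counts in 60 such barcodes at 25 cycles, 87 counts in 8 at 30 cycles and 192 counts in 15 at 35 cycles, against 15, 5 and 7 counts in human cells. The median total of those barcodes was 3.5, 12 and 12 counts, and 30 of 60, 7 of 8 and 11 of 15 held no gene other than MZB1. XBP1 had 12 counts in 2 such barcodes at 25 cycles, 9 counts in 1 at 30 cycles and 9 counts in 1 at 35 cycles, with median totals of 52.5, 52 and 46 counts, and 0 in human cells. No mouse cell of these libraries had XBP1, and 1 mouse cell had MZB1. In 10X, barcodes outside the cells also held counts of all 7 genes. In CPM of their human counts, JCHAIN stood at 2144 and 862 at 30 and 35 cycles, against 2420 and 1555 in human cells. PRDM1 stood at 1552 and 1308, against 2420 and 672, and MZB1 at 327 and 345, against 1241 and 1405. PRDM1 had 152 and 220 counts outside the cells. What the barcodes outside the cells hold was not tested on either platform.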

How the results depend on the processing

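Of 1352 values recomputed under an alternative, 1067 stayed within counting error or within 1.5 times the count, 283 moved further without changing sign, and 2 changed sign. MZB1 at 35 cycles went from higher in 10X to a log2 ratio of -0.25 when all barcodes that pass the purity were used, where the Drop-seq counts lie mostly in barcodes of few counts. XBP1 in 10X went to -0.82 when values below 3 were left out, where it had no entry. The summed level of the 7 genes in 10X at 30 and 35 cycles was 7095 and 4739 CPM with the labelled number of cells cut to its deeper 50%, 5875 and 3671 with all barcodes that pass the purity, 3791 and 2514 by the highest transcript, 5953 and 3062 without values below 3, 7825 and 5529 with the 10 most abundant genes left out of the total, and 3347 and 1892 over the counts of all cells. It was 6909 CPM at 30 cycles with all barcodes of at least 100 counts. In Drop-seq at 25 cycles it was 31.9 CPM with the deeper 50% of cells, 0 at 95% purity and 52.1 by the highest transcript. With all barcodes that pass the purity it was 296, 645 and 854 CPM at 25, 30 and 35 cycles, and over the counts of all cells 27.4, 19.6 and 19.4. The level in 10X stayed above that in Drop-seq of the same cycle number under every alternative run.

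The log2 ratio of the 7 genes between 35 and 30 cycles in 10X was -0.96 without values below 3, -0.82 over the counts of all cells and -0.33 when scaled by the median of ratios. The log2 ratio of 10X to Drop-seq was 3.06 and 1.41 at 30 and 35 cycles with all barcodes that pass the purity, and 11.32 and 10.67 when scaled by the median of ratios. That scaling put 322 human genes at least 2-fold higher and 161 lower in 10X at 30 cycles, and 447 and 230 at 35 cycles, where CPM gave 140 and 662, and 148 and 903. With all barcodes that pass the purity, 1250 and 1722 genes were lower. By the highest transcript 240 and 377 were lower. At a minimum of 50 counts 74 were higher and 224 lower at 30 cycles, and 76 and 346 at 35 cycles. At 100 counts these were 43 and 88, and 50 and 131. Between 35 and 30 cycles in 10X, CPM gave 343 genes higher and 612 lower. There were 967 lower with all barcodes that pass the purity, 125 higher and 340 lower by the highest transcript, 73 and 137 without values below 3, 100 and 181 at 50 counts, and 40 and 78 at 100 counts. In Drop-seq, CPM gave 127 higher and 116 lower. There were 238 and 213 with all barcodes that pass the purity, 31 and 19 by the highest transcript, 32 and 21 at 50 counts, and 3 and 3 at 100 counts. The higher minimum and the highest transcript leave fewer genes to compare. In other cases the cause was not tested.

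No paired analysis was possible because each group holds 1 library. Shares of cells depend on the entries of 2 counts. Without values below 3, an alternative chosen after seeing the data, at least 1 of the 7 genes was in 5.47% and 5.27% of human cells of 10X at 30 and 35 cycles, against 23.4% and 21.0% with all values. PRDM1 was in 0.497% and 0.220% of human cells of 10X at 30 and 35 cycles, and IRF4 in 0 and 0.110%. The small number of Drop-seq human cells limits XBP1, IRF4, SDC1 and TNFRSF17, whose 10X shares lie under the share that a count of 0 allows in Drop-seq.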
